A study of Mus musculus with 24 samples.

Results

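The nucleolar ribosome biogenesis genes are 40 mouse genes, chosen by symbol from a fixed list, that encode the machinery which transcribes ribosomal RNA and builds it into ribosomal subunits. The deposited table has 19895 entries. In it, 33 of the 40 genes have an entry under their own symbol, and Utp4 is listed under its older symbol Cirh1a. All 34 of these genes had a count above 0 in every library, which was the filter for testing, and they were tested among 11438 genes. The other 6 genes share an entry with neighbouring genes (Idh3b+Nop56, Dkc1+Mpp1, Nhp2+Rmnd5b, Bop1+Mroh1, Carf+Wdr12 and Glt8d1+Gnl3+Spcs1). Their reads cannot be told apart from those of the neighbours, so their values are given apart and are in no count of the 34.

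N organoids are cultures of pancreas cells from wild-type C57Bl/6J mice, and KP organoids are cultures of pancreatic tumour cells from mice that carry Trp53 +/LSL-R172H among their alleles, recombined by Pdx1-Cre, which acts in cells of the pancreatic lineage. Both received, for 1 h, vehicle or 10 nM of CR-31, a rocaglate compound that blocks the helicase eIF4A, and all lysates received cycloheximide for the last 5 min. There were 4 groups with 3 replicates each. From every one of the 12 lysates, polysome-associated mRNA (bound by 3 or more ribosomes) and total mRNA taken before the gradient were sequenced as separate libraries. The sources used here do not say that replicates came from separate cultures or animals, so the p-values measure the spread between these samples, which may be technical.

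Ribosome production starts in the nucleolus, where RNA polymerase I transcribes the precursor of the ribosomal RNAs. Small nucleolar ribonucleoproteins (snoRNPs) modify it, and large sets of assembly factors fold and cut it into the small and the large subunit. Growing cells spend much of their energy on this pathway, and many of its genes are known targets of the transcription factor MYC. The 34 tested genes comprise 5 of RNA polymerase I transcription, 6 other abundant nucleolar proteins, 3 of the snoRNPs, 10 small subunit factors and 10 large subunit factors.

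The libraries held from 47308461 to 267463046 counted reads, and the lowest count of a tested member was 154 (Utp20). Summed markers of pancreatic duct epithelium were between 9285 and 15739 CPM in N and between 6366 and 11451 CPM in KP libraries, whereas those of acinar cells, endocrine cells, fibroblasts and endothelium did not exceed 5.37 CPM. Immune markers were highest in N replicate 3, up to 27.7 CPM, and at 35.2 CPM in the polysome library of vehicle-treated KP replicate 3, against 7.74 CPM or less in the other lysates, and their part in the results below was not tested. The header names of the libraries begin with prefixes that were read as sequencing lanes or runs, which the labels do not state. No prefix was shared by both organoid types, so lane or run and organoid type cannot be told apart. Within each type, vehicle replicates 1 and 2 and CR-31 replicate 1 shared a prefix and the other lysates shared another. Replicate 3 of N stood apart for these genes. The median log2 ratio of polysome-associated to total mRNA over the 34 genes was 0.33 in its vehicle lysate and -0.36 in its CR-31 lysate, and between -0.21 and 0.10 in the other 10 lysates.

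The genes differed widely in level. On the deposited RPKM scale, which is per length, Npm1, the nucleolar histone and protein chaperone nucleophosmin, was the highest and Utp20, a large scaffold of the small subunit processome, the lowest of the 34 in all 8 groups. In total mRNA of vehicle-treated N organoids Npm1 was at 850 ± 153 RPKM (SD, n = 3), Fbl at 141 ± 24.7, Polr1c at 121 ± 22.02, Npm3 at 63.3 ± 4.11 and Utp20 at 0.79 ± 0.59. In total mRNA of vehicle-treated KP organoids Npm1 was at 697 ± 226 RPKM, Fbl at 175 ± 14.17, Polr1c at 104 ± 6.82, Npm3 at 91.1 ± 9.601 and Utp20 at 1.04 ± 0.22. The same few genes thus led in both organoid types. Between 2 and 10 of the 33 pairs of neighbours in this order did not overlap between replicates, Npm1 against the next gene among them in every group, so most neighbours did not differ beyond their spread. Npm1 has near-identical copies elsewhere in the genome, and reads that mapped to several places were discarded, so its level may be too low.

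Because MYC and related factors bind the E-box CACGTG, a palindrome that reads the same on both strands, the 250 bases before each start site were searched for it. In the RefSeq promoter table (GRCm38.p6), which holds 34 of the 40 genes (some of them from merged entries), 2 genes have the box (5.88%), against 9.88% of the 8849 tested genes in that table and 6.86% of all 27025. They are Nop2, a methyltransferase of large subunit ribosomal RNA, with the window chr6:125131811-125131840 that starts its box 60 bases before the start site, and Rrn3, which brings RNA polymerase I to its promoter, with chr16:13780472-13780501 (215 bases before) and chr16:13780639-13780668 (48 bases before). All windows are on the plus strand, 30 bases long, with the box in capitals. They are shown as the only members' windows that hold these letters, and a match is a description, not a binding site.

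Nop2: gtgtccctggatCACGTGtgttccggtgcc
Rrn3 upstream box: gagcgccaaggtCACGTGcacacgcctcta
Rrn3 downstream box: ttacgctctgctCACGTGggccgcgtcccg

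Neither of these genes passed the test between KP and N organoids. Nop2 differed by 0.30 ± 0.38 (log2, SE) and Rrn3 by 0.28 ± 0.22 in polysome-associated mRNA, with edgeR adjusted p-values of 0.622 and 0.396. Myc itself differed by 0.32 ± 0.45 in polysome-associated and 0.51 ± 0.41 in total mRNA, with edgeR adjusted p-values of 0.657 and 0.484.

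The first comparison asked whether these genes were more engaged by polysomes in tumour than in normal organoids. In polysome-associated mRNA of vehicle-treated organoids, 7 of the 34 genes were higher and 1 was lower in KP at an edgeR adjusted p under 0.25, against 20.9% and 22.2% of all genes tested. The study set the same limit on the false discovery rate with another tool. It also set limits on effect size and slope, which were not applied here. In either direction 8 of 34 were called, against 43.1% of all genes, so a call was no more frequent among these genes than in the whole table. At an adjusted p under 0.05, 1 of the 34 was higher (Npm3) and 0 lower, against 8.02% and 7.22% of all genes. The median log2 difference was 0.10 over the 34 genes and -0.03 over all genes, with 20 positive and 14 negative. The median over the 34 was 0.32 without N replicate 1, 0.03 without KP replicate 1 and 0.02 under upper-quartile scaling, where that over all genes was -0.13. In bulk organoids, a change in the share of cells that make an mRNA and a change in the amount per cell cannot be told apart.

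Npm3, a small chaperone of the nucleoplasmin family, rose most. Its polysome-associated level was 58.3, 43.8 and 70.7 CPM in N replicates 1 to 3 and 133, 115 and 97.9 CPM in KP. The groups did not overlap, and the difference was 2.00-fold (log2 1.00 ± 0.24 SE, edgeR adjusted p = 0.0189). In total mRNA, Npm3 was at 60.3, 58.0 and 67.0 CPM in N and 92.3, 88.1 and 78.0 CPM in KP, again without overlap (log2 0.48 ± 0.20, edgeR adjusted p = 0.171).

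Of the 3 snoRNP proteins tested, Fbl and Gar1 were among the genes called higher (20.9% of all genes were). Fbl, the box C/D methyltransferase fibrillarin, was at 186, 141 and 203 CPM in N and 312, 205 and 309 CPM in KP (log2 0.64 ± 0.23, edgeR adjusted p = 0.0799), with no overlap. Gar1, a core protein of the box H/ACA particles that guide pseudouridylation, was at 60.1, 28.5 and 50.7 CPM in N and 85.2, 59.8 and 69.1 CPM in KP (log2 0.62 ± 0.28, edgeR adjusted p = 0.146). For Gar1 the lowest KP library lay just below the highest N library. Nop58, the other C/D core protein tested, differed by 0.11 ± 0.35 and did not pass (edgeR adjusted p = 0.864).

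Of the 3 merged entries of this arm, 2 were higher. The entry Dkc1+Mpp1, which holds the pseudouridine synthase of the H/ACA particles, was at 119, 84.8 and 114 CPM in N and 254, 201 and 280 CPM in KP (log2 1.20 ± 0.25, edgeR adjusted p = 0.0121). Nhp2+Rmnd5b was at 249, 146 and 168 CPM in N and 446, 426 and 390 CPM in KP (log2 1.15 ± 0.25, edgeR adjusted p = 0.0134). Both entries were higher in every KP than in every N library, and which of the paired genes carries the difference cannot be told from these counts. Idh3b+Nop56 differed by 0.08 ± 0.23 and did not pass (edgeR adjusted p = 0.835).

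Of the small subunit factors, 2 of 10 rose and 1 fell, no larger a share than the 20.9% and 22.2% of all genes. Rrp9, a protein specific to the U3 snoRNP, was at 64.3, 23.8 and 47.2 CPM in N and 74.4, 84.3 and 60.1 CPM in KP (log2 0.69 ± 0.37, edgeR adjusted p = 0.216). Tbl3, a WD-repeat protein of the processome, was at 46.7, 28.03 and 61.1 CPM in N and 67.7, 67.8 and 69.4 CPM in KP (log2 0.59 ± 0.32, edgeR adjusted p = 0.218). N replicate 2 was the lowest library for both genes, and only Tbl3 showed no overlap. Tbl3 shares 25.8% of its exonic bases with Noxo1 on the opposite strand in GENCODE M21, and whether the counting used strand is not given in the sources used here. Wdr75, another WD-repeat protein of the processome, was lower, with 40.2, 23.06 and 36.2 CPM in N and 24.6, 22.4 and 24.5 CPM in KP (log2 -0.47 ± 0.27, edgeR adjusted p = 0.24).

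Utp20 had the largest difference downwards, but its N replicates were far apart. It was at 21.97, 9.81 and 5.76 CPM in N and 9.07, 7.70 and 7.05 CPM in KP (log2 -0.66 ± 0.56, edgeR adjusted p = 0.441). N replicate 3 was below every KP library, and without N replicate 3 Utp20 was among the genes called lower. Without N vehicle replicate 1, the difference for Utp20 was 0.03. The other small subunit factors lay between -0.42 (Ddx10) and 0.08 (Utp15) and did not pass.

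Of the large subunit factors, 2 of 10 rose, close to the 20.9% of all genes. Nop16, an assembly factor of early large subunit precursors, was at 68.1, 32.5 and 51.4 CPM in N and 106, 66.2 and 74.2 CPM in KP (log2 0.70 ± 0.30, edgeR adjusted p = 0.125). Wdr74 was at 56.5, 26.95 and 53.8 CPM in N and 71.1, 73.0 and 63.3 CPM in KP (log2 0.60 ± 0.31, edgeR adjusted p = 0.203). Wdr74 showed no overlap, whereas the lowest KP library of Nop16 lay below the highest N library. Pes1, a scaffold of the PeBoW complex, differed by 0.15 ± 0.27 (edgeR adjusted p = 0.749). The merged entry Bop1+Mroh1, which holds its partner Bop1, was at 125, 106 and 111 CPM in N and 170, 225 and 166 CPM in KP without overlap (log2 0.70 ± 0.21, edgeR adjusted p = 0.0409). The merged entry Carf+Wdr12, which holds the third partner Wdr12, differed by 0.21 ± 0.25 (edgeR adjusted p = 0.604), and Glt8d1+Gnl3+Spcs1 by 0.21 ± 0.19 (edgeR adjusted p = 0.483).

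None of the 5 genes of RNA polymerase I transcription passed. Polr1a, its largest subunit, was at 44.99, 22.3 and 18.1 CPM in N and 19.1, 15.4 and 28.7 CPM in KP (log2 -0.43 ± 0.41, edgeR adjusted p = 0.486), and without N vehicle replicate 1 the difference for Polr1a was 0.06. Of the genes of other abundant nucleolar proteins, Ncl and Npm1 did not pass either. Ncl, the RNA-binding protein nucleolin, was at 927, 591 and 684 CPM in N and 671, 366 and 691 CPM in KP (log2 -0.35 ± 0.30, edgeR adjusted p = 0.446). Npm1 was at 1786, 1557 and 1345 CPM in N and 1529, 922 and 1443 CPM in KP (log2 -0.27 ± 0.26, edgeR adjusted p = 0.499). The groups of all 3 genes overlapped.

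**Figure D1:**
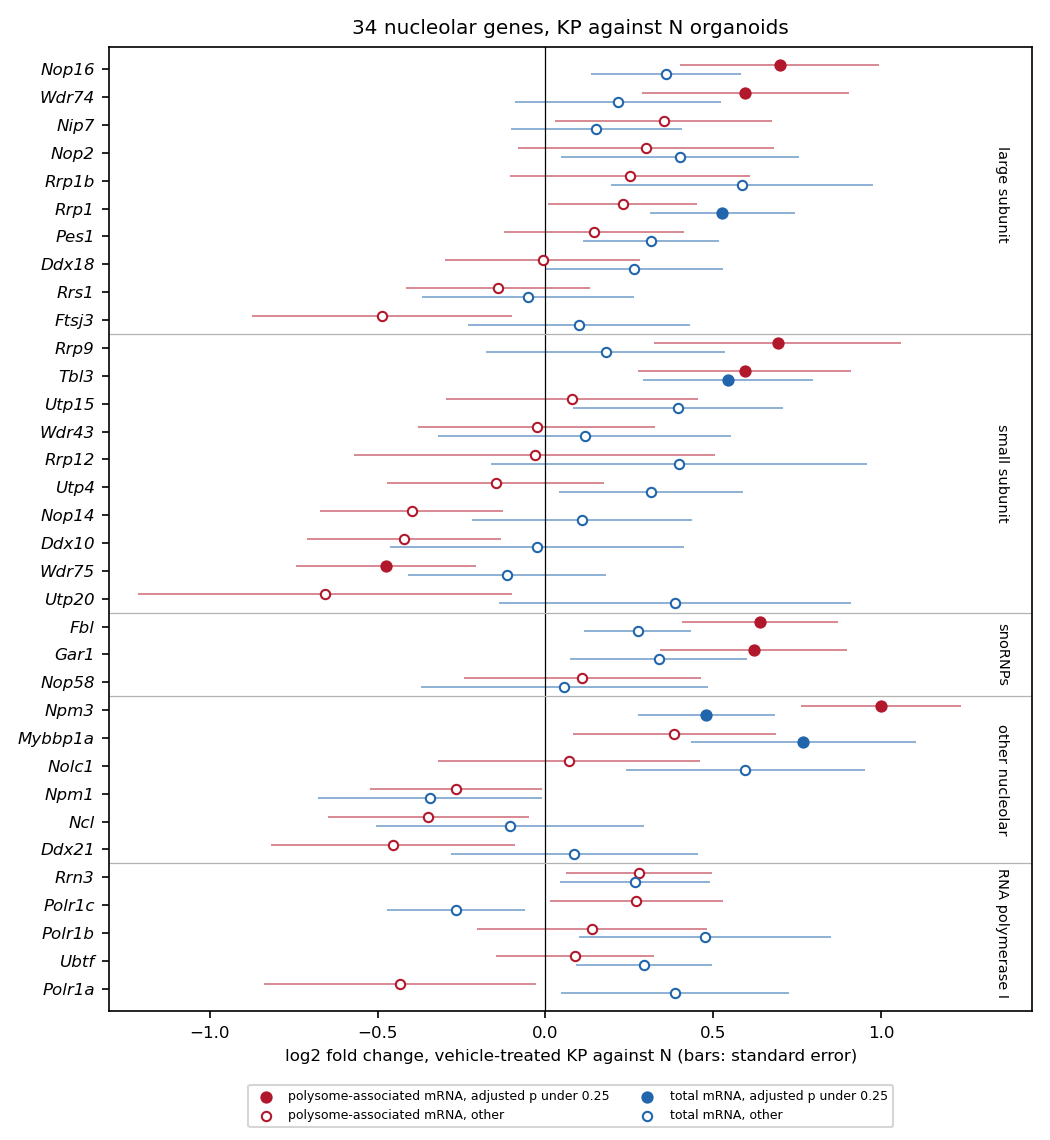
The log2 fold change of KP against N organoids under vehicle (horizontal axis) for the 34 tested genes, grouped by role, in polysome-associated mRNA (red) and total mRNA (blue). Points are edgeR estimates, bars are standard errors and filled points passed an adjusted p of 0.25. Npm3 lies farthest to the right in red at 1.00, and Wdr75 is the only filled point to the left of 0.

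Fbl, Npm3, Tbl3 and Wdr74 were higher in every KP than in every N library (4 of 34, against 18% of all genes), and 0 of 34 were lower in every one (against 15.8%). The number of calls moved when replicates were left out. Without KP replicate 1 (both lysates) only Npm3 was called, and without KP replicate 3 Npm3 and Nop16, against 24.6% and 34.5% of all genes. Without single vehicle lysates, 2 genes were called without KP replicate 1, 4 without KP replicate 2, and 5 each without KP replicate 3 or N replicate 2, where between 28.5% and 38% of all genes were called. All 5 without KP vehicle replicate 3 were higher. Without N vehicle replicate 2, Fbl and Npm3 were higher and Ddx10, Nop14 and Wdr75 lower, against 15.6% and 16.6% of all genes. Without N replicate 3, 10 were higher and 3 lower, against 26.3% of all genes in each direction. When replicates were blocked by their number inside each organoid type, 13 were higher and 9 lower, against 34% and 34.8% of all genes. Npm3 was called under every alternative run, and Fbl in all but those without both lysates of KP replicate 1 or of KP replicate 3.

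**Figure D2:**
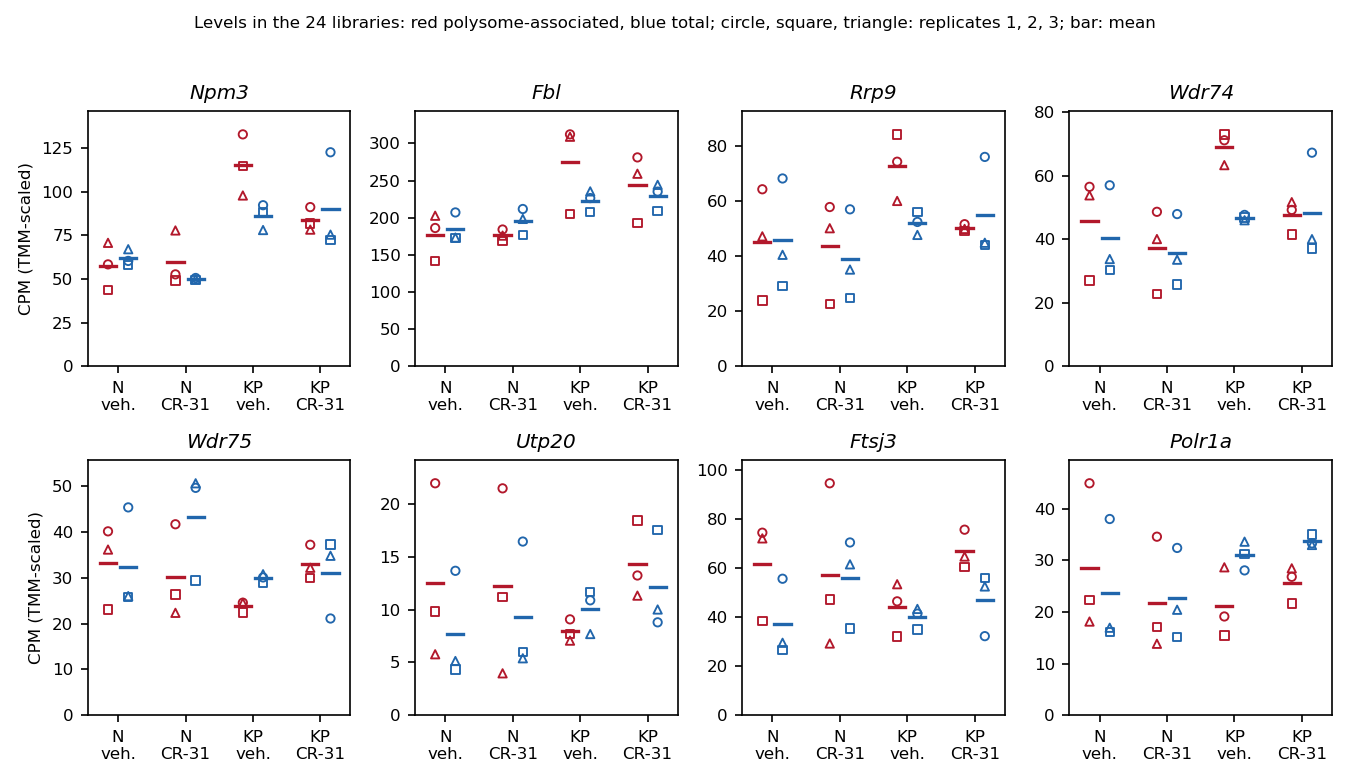
Levels of 8 members in the 24 libraries, in TMM-scaled CPM on an axis that starts at 0, by organoid type and treatment. Red marks polysome-associated and blue total mRNA, circles, squares and triangles are replicates 1, 2 and 3, and bars are means. Npm3 in polysome-associated mRNA of vehicle-treated KP (98 to 133 CPM) lies above every N library, whereas the N replicates of Utp20 and Polr1a are spread widely.

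Total mRNA was compared to see whether transcript levels differed as well. In vehicle-treated organoids, 4 of the 34 genes were higher and 0 lower in KP, against 13.1% and 15.4% of all genes. The median log2 difference was 0.28, with 28 of 34 positive, against -0.03 over all genes. It was 0.16 without N replicate 3 and 0.58 without N replicate 1. Besides Npm3, the genes called were Mybbp1a, a nucleolar protein that binds the transcription factor Myb (log2 0.77 ± 0.33, edgeR adjusted p = 0.181), Tbl3 (0.54 ± 0.25, 0.211 by the same test) and Rrp1, a large subunit factor (0.53 ± 0.22, 0.157). Mybbp1a was at 131, 65.9 and 68.2 CPM in N and 153, 168 and 131 CPM in KP, where N replicate 1 reached the lowest KP library. Rrp1 was at 148, 116 and 104 CPM in N and 169, 210 and 150 CPM in KP, without overlap. Fbl, Npm3, Rrp1 and Tbl3 were higher in every KP library (4 of 34, against 15.9% of all genes).

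The number of genes that passed in total mRNA moved with several lysates. N vehicle replicate 1 was the highest N library for most members, for example Polr1a at 38.05 CPM against 16.1 and 16.9 CPM, and without it 22 of the 34 genes were called higher, against 15.3% of all genes. Without N vehicle replicate 2 or 3, or KP vehicle replicate 1 or 2, 0 of the 34 were called by edgeR, against 14.1% to 20.5% of all genes. Without both lysates of N replicate 1, 24 were higher and 1 lower, against 17.7% and 19.9% of all genes. Without those of KP replicate 1 only Npm3 was higher, and without those of N replicate 3, 0 were called, against 18.1% and 18.9% of all genes in either direction. With the replicate block, 22 were higher and 0 lower, against 27.7% and 28.7% of all genes. Of the merged entries, Dkc1+Mpp1 (log2 1.43 ± 0.25, edgeR adjusted p = 0.00764) and Nhp2+Rmnd5b (0.48 ± 0.22, 0.203) were also higher in total mRNA.

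Translational efficiency (TE), the log2 ratio of polysome-associated to total mRNA of the same lysate, was then tested as the interaction of fraction and organoid type. By edgeR, 0 of the 34 genes passed, as did 0% of all genes, while 5 of 34 had an unadjusted p under 0.05, against 11.3% of all genes. DESeq2 called Polr1a and Utp20, both lower, and 0 higher, against 1.98% and 1.49% of the 10772 genes to which it gave an adjusted p. The median difference of the 34 genes was -0.29, against 0.00 over all genes, and 24 of 34 were negative. Polr1a had the smallest p, with a TE of 0.18, 0.44 and 0.05 in N and -0.66, -1.11 and -0.32 in KP (log2 -0.91 ± 0.26, unadjusted p = 0.00375, edgeR adjusted p = 0.433). Utp20 had 0.62, 1.15 and 0.12 in N and -0.37, -0.69 and -0.21 in KP (log2 -1.05 ± 0.35, unadjusted p = 0.00877, edgeR adjusted p = 0.433). Rrp1b, a large subunit factor, had -0.03, 0.26 and 0.27 in N and -0.35, -0.19 and -0.21 in KP (log2 -0.42 ± 0.18, unadjusted p = 0.0407, edgeR adjusted p = 0.433). For these 3 genes every KP lysate was below every N lysate. At the other end Npm3 had -0.11, -0.44 and 0.02 in N and 0.42, 0.29 and 0.24 in KP (log2 0.49 ± 0.23, unadjusted p = 0.0479, edgeR adjusted p = 0.437). Without N replicate 3, 7 of the 34 genes were called higher and 6 lower, against 20% and 15.8% of all genes, and the median over the 34 was -0.15. Regressing the polysome-associated on the total level also called Polr1a and Utp20 lower and 0 higher, against 4.46% and 6.62% of all genes, and with a replicate block it called 11 higher and 4 lower, against 27.9% and 26.5% of all genes. In that regression with the block, the difference for Rrp1b turned positive.

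The genes that lay low and high in TE differed in coding length, a property that the choice of members did not use. Across the 34 genes, the TE difference between KP and N had a Spearman's rho of -0.83 with coding length (the longest coding sequence in GENCODE M21), and across 11381 genes a rho of -0.55. Genes are not independent replicates, and all points share the same 12 lysates. The 17 members longer than the median of 2044 nt had a median of -0.48, with 16 of 17 negative, and the shorter 17 a median of 0.04. All genes split at that length gave -0.35 and 0.11. Npm3, with 525 nt the shortest member, had the largest positive value, and Utp20, with 8367 nt the longest, and Polr1a, with 5151 nt the next, the largest negative ones.

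In polysome-associated mRNA rho was -0.61 over the members and -0.26 over all genes, whereas in total mRNA it was 0.20 and 0.07. Of the 7 members called higher in polysome-associated mRNA, 6 are among the shorter 17. Of all genes split at the same length, 25.2% of the shorter and 10.2% of the longer were called higher. Within single lysates, rho between coding length and TE over the members was 0.40, 0.58 and 0.39 in vehicle-treated N and -0.49, -0.36 and -0.20 in vehicle-treated KP. The sign thus differed between the organoid types in every vehicle replicate. Under CR-31 it was 0.47, 0.33 and -0.34 in N and -0.03, -0.16 and 0.00 in KP, so that N replicate 3 differed from the other N lysates and the KP values lay nearer to 0 than under vehicle. Over all genes, rho was 0.32, 0.57 and 0.14 in vehicle-treated N and -0.29, -0.13 and 0.03 in vehicle-treated KP lysates.

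**Figure D3:**
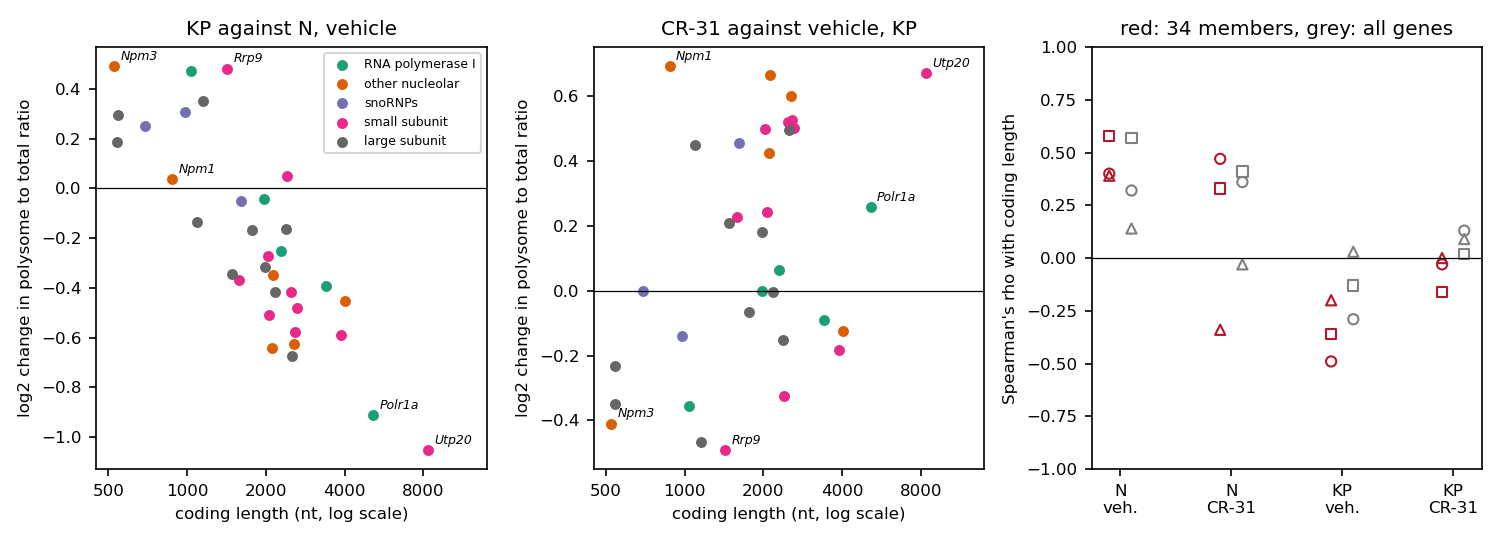
The log2 change in the ratio of polysome-associated to total mRNA against coding length in nt on a log axis, for KP against N under vehicle (left) and CR-31 against vehicle in KP (middle), with 1 point per member coloured by role. The right panel gives, for each of the 12 lysates, Spearman's rho between coding length and that ratio over the 34 members (red) and all genes (grey), with circles, squares and triangles for replicates 1, 2 and 3. On the left the points fall from Npm3 at 525 nt to Utp20 at 8367 nt (rho -0.83), and both left panels share the vehicle-treated KP lysates.

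Within organoid types, polysome-associated mRNA of vehicle-treated N was enriched over total mRNA for 7 of the 34 genes and depleted for 0, against 8.83% and 6.36% of all genes. They were Ddx10 (log2 1.27 ± 0.35, edgeR adjusted p = 0.0626), Ncl (0.97 ± 0.27, 0.0626), Nop58, Nop14, Rrp12, Utp20 and Ftsj3. In vehicle-treated KP 7 were enriched, namely Nop58 (0.81 ± 0.31, edgeR adjusted p = 0.142), Ddx10, Ncl, Polr1c, Wdr74, Rrp9 and Npm3, and 5 were depleted, namely Polr1a (-0.69 ± 0.19, 0.0698), Utp4, Utp15, Nolc1 and Rrn3. These are 12 of 34 genes, against 27.5% of all genes. Ddx10, Ncl and Nop58 were thus on the enriched side in both types. The N count was 0 without vehicle replicate 2 and 4 (all enriched) without vehicle replicate 3, against 1.63% and 12.4% of all genes enriched. Without N replicate 3 (both lysates), 6 genes were enriched and 7 depleted, against 15% and 20.7% of all genes. In KP it was 0 without vehicle replicate 1 or 2 and 1 (Polr1a) without vehicle replicate 3, where 0.481%, 0.525% and 6.08% of all genes were called.

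Treatment with CR-31 for 1 h asked how these mRNAs respond to a block of eIF4A. In polysome-associated mRNA of KP organoids, edgeR called 0 of the 34 genes and 0% of all genes at an adjusted p under 0.25, and DESeq2 likewise called 0. At an unadjusted p under 0.05, 0 of the 34 and 406 of all genes (3.55%) passed. In 3 of 3 replicate pairs 18 of 34 were higher and 8 lower, against 28.9% and 30.6% of all genes, with a median of 0.14 against -0.02 over all genes. Of the 34, 10 were higher in every CR-31 than in every vehicle library (Ddx10, Ddx21, Ftsj3, Mybbp1a, Nop2, Rrs1, Utp15, Utp20, Utp4 and Wdr75), against 8.94% of all genes, and 3 were lower in every one (Npm3, Rrp9 and Wdr74), against 10.5%.

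The labels number the replicates, and these numbers paired vehicle with CR-31 lysates within each organoid type. With that replicate block, edgeR called 4 of the 34 genes higher and 3 lower in KP, against 8.3% and 11.1% of all genes. Npm3 fell in the blocked fit from 133, 115 and 97.9 CPM under vehicle to 91.2, 81.8 and 78.3 CPM (log2 -0.46 ± 0.24, edgeR adjusted p = 1, and 0.192 with the block). Wdr74 fell from 71.1, 73.0 and 63.3 CPM to 49.2, 41.5 and 51.7 CPM (log2 -0.54 ± 0.31, edgeR adjusted p = 1, and 0.192 with the block). Rrp9 likewise went from 74.4, 84.3 and 60.1 CPM to 51.6, 49.1 and 49.9 CPM (edgeR adjusted p with the block 0.192). In each of these genes all CR-31 libraries lay below all vehicle libraries.

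In the other direction, Wdr75 rose in the blocked fit from 24.6, 22.4 and 24.5 CPM to 37.2, 29.9 and 32.2 CPM (log2 0.47 ± 0.27, edgeR adjusted p = 1, and 0.21 with the block). Utp20 went from 9.07, 7.70 and 7.05 CPM to 13.23, 18.4 and 11.3 CPM (edgeR adjusted p with the block 0.192), and Ddx21, an RNA helicase of the nucleolus, and Polr1a passed as well (0.202, and 0.25 after rounding). Ftsj3, a ribosomal RNA methyltransferase, went from 46.3, 31.96 and 53.3 CPM to 75.6, 60.2 and 64.6 CPM without overlap but did not pass (log2 0.61 ± 0.39, edgeR adjusted p = 1, and 0.265 with the block). Coding length ran the other way here, with a Spearman's rho of 0.61 over the 34 members and 0.41 over 11381 genes. The vehicle-treated KP libraries serve in this comparison and in that of KP against N, so these sets of values are not independent.

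**Figure D4:**
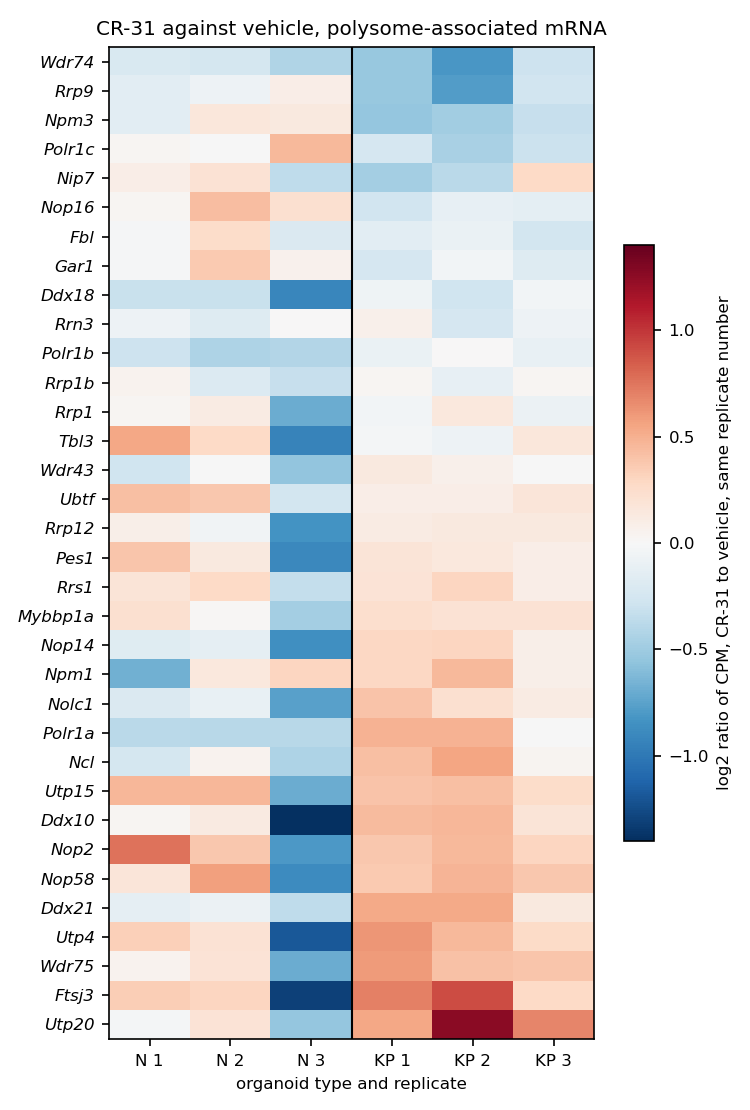
The log2 ratio of CPM in CR-31 to CPM in vehicle of the same replicate number, in polysome-associated mRNA, for the 34 genes (rows, ordered by their edgeR log2 fold change in KP) and the 6 replicate pairs (columns, replicates 1 to 3 of N and of KP). Red is higher and blue lower under CR-31. The 3 KP columns run from blue for Wdr74, Rrp9 and Npm3 to red for Utp20, whereas in N replicate 3 most cells are blue (median -0.45).

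Without the replicate block, TE under CR-31 gave no calls in KP. By edgeR 0 of the 34 genes and 0% of all genes passed, DESeq2 called 0, and at an unadjusted p under 0.05 it was 0 of 34 and 627 of all genes (5.48%). The smallest p was that of Rrp9, with a TE of 0.40, 0.49 and 0.25 under vehicle and -0.54, 0.10 and 0.11 under CR-31 (log2 -0.49 ± 0.24, unadjusted p = 0.0602, edgeR adjusted p = 0.529). Ddx21 had -0.27, -0.32 and -0.07 under vehicle and 1.01, 0.05 and 0.09 under CR-31 (log2 0.60 ± 0.30, unadjusted p = 0.0648, edgeR adjusted p = 0.529). Utp20 had -0.37, -0.69 and -0.21 under vehicle and 0.61, 0.02 and 0.13 under CR-31 (log2 0.67 ± 0.34, unadjusted p = 0.0706, edgeR adjusted p = 0.529). For all 3 genes the groups did not overlap, and CR-31 replicate 1 lay farthest from vehicle. The regression with a replicate block called 4 higher (Utp4, Utp15, Utp20 and Wdr75) and 3 lower (Npm3, Rrp9 and Wdr74), against 6.02% and 7.76% of all genes. In total mRNA of KP, edgeR called 0 of the 34 and 0% of all genes, with 0 and 109 (0.953%) at an unadjusted p under 0.05, and DESeq2 called 8 genes and no member.

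In N organoids CR-31 gave no calls among these genes. In polysome-associated mRNA edgeR and DESeq2 called 0 of the 34 and 0% of all genes, and 0 of 34 and 48 genes (0.42%) had an unadjusted p under 0.05. With the replicate block it was also 0. The 3 replicate pairs did not move together, with medians over the 34 genes of 0.03, 0.13 and -0.45. The overall median of -0.10, with 26 of 34 negative, was 0.07 without N replicate 3, again with 0 of 34 called. In total mRNA edgeR called 0 of 34 and 0% of all genes, with 0 and 297 (2.6%) at an unadjusted p under 0.05, and DESeq2 called 13 genes and no member. In 3 of 3 replicate pairs 18 of the 34 were higher and 6 lower in total mRNA, against 20.7% and 23% of all genes. The median there was 0.13, against 0.00 over all genes, and 0.03 without N replicate 3, with medians of 0.03, 0.06 and 0.29 in the 3 pairs.

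TE in N showed the same split between replicates, with medians of 0.03, -0.04 and -0.67. By edgeR and DESeq2 0 of 34 and 0% of all genes passed, and 1 of 34 and 328 of all genes (2.87%) had an unadjusted p under 0.05. That gene was Nop14, a small subunit factor, with a TE of 0.27, 0.59 and 1.02 under vehicle and 0.22, 0.33 and -0.79 under CR-31 (log2 -0.70 ± 0.31, unadjusted p = 0.0387, edgeR adjusted p = 0.736). Utp4, of the processome, had -0.56, -0.50 and 0.48 under vehicle and -0.49, -0.48 and -1.86 under CR-31 (log2 -0.73 ± 0.36, unadjusted p = 0.0605, edgeR adjusted p = 0.736). Ftsj3 had 0.35, 0.50 and 1.24 under vehicle and 0.36, 0.35 and -1.14 under CR-31 (log2 -0.82 ± 0.41, unadjusted p = 0.0642, edgeR adjusted p = 0.736). In Utp4 and Ftsj3 the first 2 replicates differed little and replicate 3 carried the difference. Without N replicate 3 the TE change was -0.15 for Nop14, 0.05 for Utp4 and -0.07 for Ftsj3 (edgeR adjusted p = 1 for each). Without N replicate 3, the median TE change over the 34 genes was -0.01 and 0 of 34 were called.

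Whether the effect of CR-31 differed between KP and N was tested as an interaction. In polysome-associated mRNA 0 of the 34 and 0% of all genes passed by edgeR and by DESeq2, with 0 of 34 and 258 of all genes (2.26%) at an unadjusted p under 0.05. The median difference over the 34 genes was 0.26, 0.03 without N replicate 3 and 0.51 without N replicate 1. In TE 0 of the 34 and 0% of all genes passed by edgeR, with 7 of 34 against 10.7% of all genes at an unadjusted p under 0.05. DESeq2 gave an adjusted p to 1681 genes, 7 members among them, and called 1 of these 7 (Polr1c) lower and 0 higher, against 14.1% and 3.15% of the 1681. Without N CR-31 replicate 2, edgeR called 11 of the 34 higher and 1 lower, against 9.77% and 6.85% of all genes. The largest difference among the 7 genes with an unadjusted p under 0.05 in edgeR was that of Ftsj3 (log2 1.32 ± 0.58, unadjusted p = 0.0383, edgeR adjusted p = 0.419). Its TE changed by 1.19, 0.27 and 0.04 in the KP pairs and by 0.01, -0.15 and -2.38 in the N pairs, and without N replicate 3 the difference was 0.56 ± 0.44 (unadjusted p = 0.228, edgeR adjusted p = 0.558).

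KP was compared with N under CR-31 as well. In polysome-associated mRNA Mybbp1a (log2 0.62 ± 0.30, edgeR adjusted p = 0.247) and Npm3 (0.49 ± 0.24, 0.248) were higher and 0 lower, against 11.2% and 13.8% of all genes (25% in either direction). Of the 34 genes, 31 were positive, with a median of 0.33, against 5556 of 11438 and -0.02 over all genes. Of 76 other ribosome biogenesis factors, described below, 61 were positive, with a median of 0.23. The median over the 34 was 0.20 without N replicate 3, where only Npm3 was called, against 34.7% of all genes, and 0.62 without N replicate 1. With the merged entries included in the tests, 0 of the 34 were called, against 24.7% of all genes. Without both lysates of N replicate 1, 20 were called, without N CR-31 replicate 1, 15, and without N vehicle replicate 3, 6, all of them higher, against 14.7%, 12.4% and 14.9% of all genes called higher. Without KP CR-31 replicate 1 or 3, KP vehicle replicate 1 or 3, or N CR-31 replicate 2, 0 were called, while each left at least 9.48% of all genes called in either direction. In total mRNA Npm3 (0.85 ± 0.20, edgeR adjusted p = 0.0251), Mybbp1a (1.06 ± 0.34, 0.063), Tbl3 (0.74 ± 0.25, 0.0793), Polr1b, the second largest subunit of RNA polymerase I (0.77 ± 0.38, 0.195), and Pes1 (0.40 ± 0.20, 0.205) were higher and 0 lower, against 18.9% and 21% of all genes (39.9% in either direction). In total mRNA 2 of these (Mybbp1a and Npm3) remained without KP CR-31 replicate 1 and 3 (with Tbl3) without N CR-31 replicate 3, whereas 14 were called without N CR-31 replicate 1, 10 without N vehicle replicate 1 and 17 without both lysates of N replicate 1. Without N CR-31 replicate 2, Mybbp1a, Npm3 and Tbl3 were higher and Ddx10, Nop14, Nop58 and Wdr75 lower, against 15.5% and 17.4% of all genes. In the 5 settings before that one, all genes gave 18.6%, 28.7%, 42.3%, 41.8% and 46.1% called in either direction in that order. With the replicate block 23 were higher and 0 lower in polysome-associated mRNA, against 28.7% and 29.5% of all genes, and 17 were higher and 5 lower in total mRNA, against 31.7% and 33.4%.

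A wider list of other ribosome biogenesis factors, of which 76 were tested and 18 stand in merged entries, was read beside the 34 genes. In polysome-associated mRNA of vehicle-treated organoids 13 of the 76 were higher and 11 lower in KP, against 20.9% and 22.2% of all genes, with a median of -0.07. The highest of the genes called were Imp4 of the processome (log2 0.83 ± 0.22, edgeR adjusted p = 0.0274), Nle1, a large subunit factor (0.77 ± 0.31, 0.111), and Ruvbl2, a helicase that helps assemble snoRNPs (0.74 ± 0.27, 0.081). The lowest were Taf1a of the RNA polymerase I promoter factor SL1 (-1.21 ± 0.36, edgeR adjusted p = 0.0405), Pdcd11 (-0.94 ± 0.44, 0.161) and Noc3l (-0.91 ± 0.33, 0.0782). In total mRNA 7 of the 76 were higher and 1 lower, against 13.1% and 15.4% of all genes. The TE difference between KP and N had a rho of -0.74 with coding length over the 76 genes. For comparison, 9 of 10 proliferation genes tested were higher in KP in polysome-associated and 10 of 10 in total mRNA.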

How the data were processed

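Polysome-associated and total mRNA of 12 lysates (24 libraries) were sequenced by the study. Reads were aligned with HISAT2 and handled with SAMtools, per the submitters' processing notes, which name hg38 and GRCh38. The genes listed are mouse genes, and the genome used for alignment could not be settled from the sources used here. The authors deposited raw counts per RefSeq gene, with multi-mapped reads discarded, and beside them RPKM values, which are scaled by depth and gene length. Counts were used for all tests and RPKM only to order the genes by level.

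The tests covered the 11438 entries that have 1 symbol and no count of 0 in any library. Of the 19895 entries, 1042 merge several symbols. CPM were scaled by edgeR's TMM factors. The main test was edgeR's quasi-likelihood test (edgeR 4.0.16, limma 3.58.1, R 4.3.3) over 4 groups of 3 libraries, with polysome-associated and total mRNA fitted apart. TE was the interaction of fraction and group in 1 model of 24 libraries with lysate as a block. P-values were adjusted over all genes by the Benjamini-Hochberg method, and a call is an adjusted p under 0.25. Log ratios of polysome-associated to total mRNA of single lysates used edgeR's prior count of 0.5, added to the counts in proportion to library size. The log ratios of CPM in CR-31 to CPM in vehicle used no prior count. The scripts were tested on simulated counts with 1.5-, 2- and 4-fold changes in polysome libraries of vehicle-treated KP. For KP against N in polysome-associated mRNA, 4.48%, 32.8% and 75.8% of the changed genes were recovered in that order, with 32 false calls. For TE it was 13.4%, 41.8% and 97%, with 35 false calls. Python 3.11.15, numpy 2.4.6, pandas 2.3.3, scipy 1.17.1 and matplotlib 3.10.9 served for tables and figures.

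The alternatives were RLE and upper-quartile scaling, DESeq2 1.42.0, no low-count filter, a replicate block within organoid type, a term for the header prefix (lane or run) for CR-31, a regression of polysome-associated on total mRNA with and without the block, and leaving out each lysate. Replicate numbers paired vehicle with CR-31 lysates of a type, since the deviations of same-numbered libraries from their group means correlated at 0.553 to 0.892 in N and 0.455 to 0.803 in KP. They did not pair N with KP (-0.168 to 0.279), where the block takes differences between replicates of a type out of the spread by construction. Including the merged entries and leaving out both lysates of N replicate 1 or 3 or of KP replicate 1 or 3 were chosen after seeing the data.

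The members and lists were chosen with earlier results of these data known. Values per library are given for a defining member of each role, for the 8 smallest p-values and the largest differences of KP against N in polysome-associated mRNA, for the 4 smallest p-values of CR-31 in KP, and for the 3 smallest in each TE comparison. Of the wider list, the 3 highest and 3 lowest genes called are named. Values for other genes, such as the TE of Npm3, Rrp1 and Mybbp1a in total mRNA and the merged entries, were chosen after they were seen. Part of the KP genotype is not reported here.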

Additional observations from a re-analysis of the deposited data

Results flagged for a closer look

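For 12 of the 34 genes, the effect of CR-31 had one sign in all 3 KP replicate pairs and the other sign in all 3 N replicate pairs, in polysome-associated mRNA, total mRNA or TE, against 14.3% of all genes. By measure it was 4 of 34 in polysome-associated mRNA (6.74% of all genes), 1 in total mRNA (0.935%) and 11 in TE (9.88%). The difference between the effects (KP minus N) was tested as an interaction with edgeR, and none passed after Benjamini-Hochberg adjustment.

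In polysome-associated mRNA the differences were 0.57 for Ddx21, 0.56 for Nolc1 and 0.62 for Nop14, with a rise in each KP and a fall in each N pair, and -0.37 for Nop16, with the opposite signs (edgeR adjusted p = 0.999 for each). In total mRNA Nolc1 differed by -0.31 (edgeR adjusted p = 1).

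TE showed most of these patterns. It was higher under CR-31 in each KP pair and lower in each N pair for Nop14 (1.22), Wdr75 (1.11), Utp20 (1.07), Nolc1 (1.01), Wdr43 (0.99), Ddx21 (0.86), Ddx18 (0.70) and Polr1a (0.64). It had the opposite signs for Polr1c (-0.77), Npm3 (-0.75) and Rrp9 (-0.66). The edgeR adjusted p was between 0.419 and 0.424 for these 11 genes. DESeq2 gave an adjusted p to Polr1c alone of these 11 and called it (0.242). Without N replicate 3 the sizes of the 11 differences lay between 0.20 and 0.96, with edgeR adjusted p-values of 0.546 or more, and their signs were already fixed by how the genes were picked. In several of them 1 pair in each type carried most of the size. For Wdr75, the TE change was 1.23, 0.09 and 0.25 in KP replicates 1 to 3 and -0.07, -0.03 and -1.67 in N replicates 1 to 3.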

How the results depend on the processing

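The number of members called in KP against N depended on single lysates and on the replicate block. In polysome-associated mRNA under vehicle it was 8, 22 with the replicate block and 1 to 13 when lysates were left out. In total mRNA it was 4, 22 with the block and 0 to 25 with lysates left out. Under CR-31 it was 2 in polysome-associated mRNA, 23 with the block, 0 to 20 with lysates left out, 0 with the merged entries included (2 when those entries are counted as members), and 1 under RLE scaling, under upper-quartile scaling and with no low-count filter, and in total mRNA 5, 22 with the block, 8 with the merged entries counted as members and 1 to 17 with lysates left out. For TE under vehicle it was 0, 2 under DESeq2, 2 under the regression on total mRNA, 15 with that regression and the block, and 0 to 13 with lysates left out. For CR-31 in KP, 0 became 7 with the replicate block in polysome-associated mRNA and 7 with the regression and the block in TE. Polysome-associated against total mRNA gave 7 in N (0 to 13 with lysates left out) and 12 in KP (0 to 17). Where fewer lysates were used, the fit had fewer residual degrees of freedom; the cause of the other changes was not tested. The replicate block changed no other count among those tried by over 1.5 times. Of the counts under all alternatives, 251 stayed within that limit and 62 moved. For single genes and settings, 661 results kept their direction and side of the threshold, 113 lost their call, 24 gained one and 7 changed sign, none of these called either way. With lysates left out, KP against N in polysome-associated mRNA ran from -1.01 (without N vehicle replicate 3) to 0.030 (without N vehicle replicate 1) for Utp20 and from -0.74 (without KP vehicle replicate 3) to 0.060 (without N vehicle replicate 1) for Polr1a, with 0.020 for Polr1a without N replicate 1. With the regression on total mRNA and the block, TE became 0.20 for Rrp1b in KP against N, and 0.59 for Utp4 and 0.26 for Ftsj3 under CR-31 in N, where Utp4 ran from -1.11 without N replicate 1 to 0.049 without N replicate 3. Upper-quartile scaling moved the median of all genes in polysome-associated mRNA of KP against N from -0.03 to -0.13. The lowest count of a member was 154, for Utp20 in 1 library, and what depth limited for single genes was not tested.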
